A study of Mus musculus with 2 samples.

Results

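Transcripts of 10 genes of the NF-kB response were followed across the cell classes of the mouse dentate gyrus. They were the cytokine genes Il1a, Il1b and Tnf, the Rel-family genes Nfkb1 and Relb, the inhibitor genes Nfkbia and Tnfaip3, the nuclear IkB gene Nfkbiz, the adhesion gene Icam1 and the mRNA-decay gene Zfp36. The genes were chosen by name as a group of inflammatory cytokines and NF-kB feedback genes, with earlier results of these data known. All 10 were matched among the 32285 genes of the count matrix.

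NF-kB is a family of transcription factors held in the cytoplasm by inhibitor proteins. Signals such as interleukin 1, tumour necrosis factor or bacterial products lead to the breakdown of the inhibitor, and the freed factors enter the nucleus and switch on cytokine, chemokine and adhesion genes. The same factors switch on their own brakes, among them the inhibitor IkB-alpha (Nfkbia), the ubiquitin-editing enzyme A20 (Tnfaip3) and the decay factor tristetraprolin (Zfp36), which binds AU-rich stretches in cytokine mRNAs and speeds their loss. In the brain the response is best known from microglia, the resident macrophages of the tissue, from macrophages at its borders and from the endothelium of its vessels.

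Cells were prepared from the dentate gyrus, a part of the hippocampus in which new neurons form after birth, at postnatal day 30. The control mice carried a Nestin-Cre transgene (B6.Cg-Tg(Nes-cre)1Kln/J) with Phf2+/+, and the conditional knockouts carried the same Nestin-Cre transgene with Phf2flox/flox, so that Cre was present in both groups. Each group comprised 4 mice and gave 1 library. The nestin promoter of this transgene acts in neural stem cells, and their neural progeny inherit the deletion, whereas microglia, border macrophages and vascular cells arise from other lineages. Brains were perfused with buffered saline and dissociated with enzymes, and single-cell libraries that tag each mRNA near its 3' end were made with the 10x Genomics kit. The 2 barcode suffixes of the matrix are called library 1 and library 2, because nothing in the sources used here ties a suffix to a genotype. No value below is a comparison of genotypes. Libraries are shown side by side, but as each genotype gave 1 library, they are not replicates of the same condition. The spread between them cannot be told apart from a difference between genotypes.

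Library 1 held 102897659 unique molecular identifiers (UMIs, each standing for 1 captured mRNA molecule) and library 2 held 107266420, and 23 barcodes without their suffix occurred among the cells of both. After quality filters and removal of doublets, 8029 and 8129 cells remained, with medians of 8092 and 7232 UMIs. They formed 31 clusters, of which those that could be named gave 17 classes with at least 20 cells in each library, and 360 and 401 cells stayed unnamed. Class names rest on marker genes alone and are to be read as microglia-like, endothelial-like and so on. Each marker of a class was found in at least 25% of its cells, apart from 1 or 2 of 10 markers of radial glia-like stem cells (RGL) and 1 of 7 of neuroblasts, and the file held 6 of 7 listed markers of committed oligodendrocyte precursors (COP). The 10 genes, 60 other genes of the pathway, 20 early-response genes such as Fos, and sex-linked and mitochondrial genes were kept out of clustering. An alternative with all variable genes put the members, the pathway genes and the early-response genes back. Levels are given as UMIs of the gene per 1000000 UMIs of a class (CPM) in library 1 and library 2 in that order, and intervals in the plots cover counting error alone.

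The 9 members examined differed in a sequence feature that bears on mRNA decay. The AU-rich heptamer TATTTAT, searched on the sense strand of annotated 3' untranslated regions with overlaps counted, occurred 8 times in Tnf, 3 times each in Il1a, Il1b and Zfp36, 2 times each in Nfkbia and Icam1, and 0 times in Nfkbiz, Nfkb1 and Relb. Among 20668 genes with an annotated 3' untranslated region, 25.4% held at least 1 heptamer and 3.55% held at least 3. The densest 30-base window of each of these 6 genes with a heptamer is shown 5' to 3' with the heptamers in capitals, because these are the stretches that zinc-finger proteins of the Zfp36 kind read. A match is a description of letters and no evidence of binding.
Tnf, chr17:35199677-35199706, minus strand: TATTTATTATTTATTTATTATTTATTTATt
Il1b, chr2:129364803-129364832, minus strand: acttaccTATTTATTTATgTATTTATtgat
Il1a, chr2:129300103-129300132, minus strand: tctatgTATTTATaaataTATTTATgataa
Zfp36, chr7:28376959-28376988, minus strand: cccttTATTTATgacgacttTATTTATtgt
Nfkbia, chr12:55489608-55489637, minus strand: aggaccacgtttTATTTATtgtgcttttga
Icam1, chr9:21028313-21028342, plus strand: ctcttcttgatgTATTTATtaatttagagt
These coordinates and the gene coordinates below are of GRCm38/mm10, the build named in the submitters' processing notes. The Tnf window holds 5 heptamers, some of them overlapping, 3 lie in that of Il1b, 2 each in those of Il1a and Zfp36, and 1 in each of the others.

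Promoters, here 250 bases before to 50 bases after an annotated RefSeq start (GRCm38.p6), were held by the reference for 7 of the 10 genes. The 10-base kappaB consensus, the DNA motif of NF-kB, was searched on both strands and matched in 2 of these 7 genes, Nfkbia and Tnfaip3, and in 8.46% of 32851 promoters. The looser pattern GGGNNNNNCC, searched in the same way and overlapping the consensus, matched in 5 of the 7 and in 50.8% of all promoters. The promoters of both inhibitor genes are shown in the direction of transcription with consensus matches in capitals.
Nfkbia, chr12:55492598-55492897, minus strand: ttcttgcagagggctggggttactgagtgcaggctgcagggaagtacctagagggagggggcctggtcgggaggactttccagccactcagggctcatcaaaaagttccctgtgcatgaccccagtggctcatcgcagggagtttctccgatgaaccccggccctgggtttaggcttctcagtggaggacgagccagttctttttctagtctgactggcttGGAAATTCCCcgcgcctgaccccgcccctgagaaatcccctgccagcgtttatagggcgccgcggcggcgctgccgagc
Tnfaip3, chr10:19015361-19015660, minus strand: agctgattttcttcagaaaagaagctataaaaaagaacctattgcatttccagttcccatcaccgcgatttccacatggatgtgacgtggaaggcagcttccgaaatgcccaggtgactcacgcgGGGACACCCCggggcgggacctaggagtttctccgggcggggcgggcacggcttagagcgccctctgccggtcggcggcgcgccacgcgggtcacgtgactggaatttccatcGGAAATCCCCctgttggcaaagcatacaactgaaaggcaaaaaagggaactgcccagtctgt
The Nfkbia match, GGAAATTCCC, began 29 bases before the start. In Tnfaip3, GGGACACCCC began 125 bases and GGAAATCCCC 12 bases before the start. No match says only that the letters are absent from this window.

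Across the classes, 6 of the 10 genes were highest in microglia without overlap between the libraries of neighbouring classes, 2 were highest in border macrophages without overlap, and 2 were shared between microglia and another class. The same count was not made for other genes, so it describes these genes and does not set them apart. Neural classes held less of each gene than microglia did, with Nfkbia the highest among them at up to 162 CPM. Microglia numbered 2916 and 2466 cells (medians 7817 and 6893.5 UMIs), border macrophages 153 and 149 (7678 and 6841), endothelial cells 837 and 828 (8173 and 7191), pericytes 184 and 193 (6150 and 8955), smooth muscle cells 191 and 133 (11412 and 10804), astrocytes 920 and 925 (4673 and 5064), and RGL 559 and 791 (6812 and 6400).

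**Figure D1:**
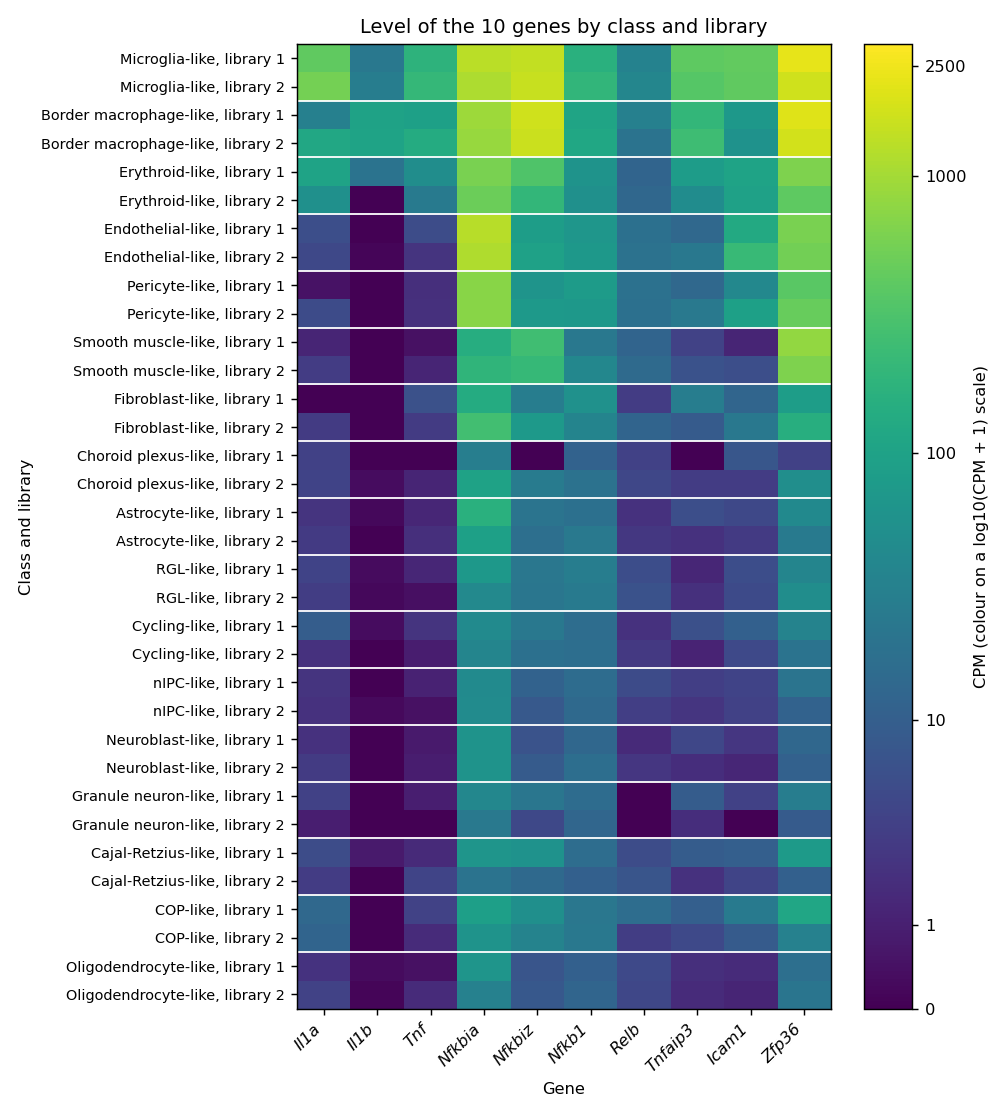
Heat map of the level of each of the 10 genes (columns, CPM on a log colour scale) in each class and library (rows). The microglial rows are the brightest for Il1a and Tnf and the border macrophage rows for Il1b, while Nfkbia and Zfp36 are also bright in endothelial cells and in mural cells.

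Il1a (chr2:129299610-129309972), which encodes the interleukin 1 form that also acts as an alarm signal of damaged cells, was a microglial transcript. Its level in microglia was 428 and 567 CPM, and 96.2% of its UMIs in kept cells of each library lay in that class. Border macrophages held 31.5 and 120 CPM, endothelial cells 5.93 and 4.70 CPM, and astrocytes 2.36 and 2.88 CPM. A UMI was found in 70.1% and 71.7% of microglia, and in 27.1% and 32.9% once each cell was thinned to 1000 UMIs. In astrocytes, taken as a class that should hold little of it, these shares were 1.20% and 1.62%, and 0% and 0.216% after thinning. Erythroid cells ranked next after microglia at 104 and 54.8 CPM, overlapping border macrophages. Their summed level of 9 microglial markers was 23.3% and 12.8% of that in microglia, and its part in these values was not tested.

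Il1b (chr2:129364570-129371139), which encodes the secreted interleukin 1 cut into its active form by inflammasome caspases, had another order. Border macrophages held 100 and 102 CPM, above microglia at 23.3 and 28.6 CPM in both libraries. The border macrophage values rested on few molecules: 115 and 103 UMIs, of which 1 cell held 35 in library 1 and another 17 in library 2. A UMI was found in 9.15% and 16.1% of border macrophages and in 5.76% and 7.30% of microglia, and in 3.27% and 4.70% against 1.37% and 1.87% after thinning. Pericytes, smooth muscle cells and fibroblasts had 0 UMIs in both libraries, and endothelial cells 0 and 1. For the 837 endothelial cells of library 1, 0 positive cells allow a share of up to 0.358% of cells with a UMI, which is no limit on cells that express the gene.

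Tnf (chr17:35199381-35202007), the gene of tumour necrosis factor, was highest in microglia at 175 and 209 CPM and next in border macrophages at 94.4 and 135 CPM. These ranges did not overlap. It was found in 42.9% and 46.8% of microglia and in 32.0% and 27.5% of border macrophages, and in 11.6% and 13.3% against 7.19% and 7.38% after thinning. Microglia held 93.5% and 93.2% of its UMIs. Endothelial cells had 5.42 and 2.29 CPM, or 53 and 19 UMIs, of which 37 and 8 came from 1 cell each.

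Of the Rel-family genes, Nfkb1 (chr3:135584655-135691547), which encodes the p105 precursor of the p50 subunit, was the most evenly spread. It was found at 161 and 192 CPM in microglia, 107 and 117 CPM in border macrophages, 78.8 and 71.0 CPM in pericytes, 65.4 and 71.3 CPM in endothelial cells, 28.6 and 26.4 CPM in RGL and 17.9 and 24.8 CPM in astrocytes. Among these, pericytes and endothelial cells overlapped and the other neighbours did not. Relb (chr7:19606217-19629438), the transactivating partner in the non-canonical branch, was scarce throughout. Microglia had 33.9 and 38.3 CPM, border macrophages 31.5 and 19.9 CPM, endothelial cells 18.3 and 19.7 CPM and pericytes 18.6 and 17.9 CPM, and endothelial cells and pericytes overlapped.

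Nfkbia (chr12:55489410-55492647), the classical inhibitor that is rebuilt after each round of activation, was as high in the endothelium as in microglia. Microglia held 1319 and 1136 CPM and endothelial cells 1250 and 1142 CPM, and the 2 ranges overlapped. Border macrophages followed at 935 and 883 CPM and pericytes at 719 and 726 CPM, with no overlap at either step. Of the pericytes' Nfkbia UMIs, 92.4% and 94.1% lay in 1 deep cluster that also held endothelial markers, and the other pericyte cluster was at 186 and 211 CPM. A UMI was found in 98.9% and 97.3% of endothelial cells and in 89.6% and 84.7% of microglia, and in 68.8% and 60.6% against 58.8% and 51.4% after thinning. Endothelial cells held 23.6% and 26.0% of all Nfkbia UMIs, and microglia 63.4% and 57.3%. In astrocytes its level was 162 and 94.4 CPM, the highest of the 10 genes' values in any neural class.

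Nfkbiz (chr16:55811375-55838899) encodes a nuclear IkB protein that is needed for a later wave of target genes. Border macrophages held 1684 and 1558 CPM and microglia 1433 and 1513 CPM, side by side but without overlap. Endothelial cells had 85.9 and 97.9 CPM, while smooth muscle cells had 254 and 212 CPM. Tnfaip3 (chr10:19000910-19015657) stood at 416 and 362 CPM in microglia, 197 and 246 CPM in border macrophages and 13.9 and 23.6 CPM in endothelial cells. It was found in 72.5% and 67.3% of microglia, 39.9% and 43.6% of border macrophages and 10.3% and 13.2% of endothelial cells.

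Icam1 (chr9:21015985-21028817), whose protein holds leukocytes to the vessel wall through their integrins, was highest in microglia and not in endothelium. Microglia held 435 and 420 CPM, endothelial cells 130 and 222 CPM, erythroid cells 102 and 96.0 CPM, pericytes 41.5 and 93.7 CPM, border macrophages 70.8 and 58.6 CPM and smooth muscle cells 1.31 and 5.77 CPM. Pericytes and border macrophages overlapped. The erythroid cluster also held all 8 endothelial markers in at least 25% of its cells, besides the microglial markers given above. Of its Icam1 UMIs, 1 cell held 44 of 173 in library 1 and another 18 of 63 in library 2. The part of RNA from other classes in its Icam1 level was not tested. A UMI was found in 79.6% and 77.3% of microglia and in 32.7% and 32.9% of endothelial cells, and in 29.2% and 27.9% against 6.69% and 9.06% after thinning. The tenth of endothelial cells with the most Icam1 held 78.3% and 82.1% of the class's UMIs, compared with 38.9% and 37.0% in microglia.

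Zfp36 (chr7:28376784-28380253) was widespread. Microglia held 2224 and 1702 CPM and border macrophages 2030 and 1728 CPM, and these overlapped. Smooth muscle cells followed at 827 and 630 CPM, endothelial cells at 597 and 543 CPM and pericytes at 385 and 468 CPM. It was found in 94.8% and 91.7% of microglia, 74.5% and 73.2% of border macrophages and 82.3% and 74.5% of endothelial cells. Genes on the other strand overlap Il1a, Il1b, Icam1 and Zfp36 in the annotation, and 1 gene on the same strand overlaps Nfkb1. The sources used here do not state whether reads were counted by strand, so reads of such partners cannot be told apart.

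**Figure D2:**
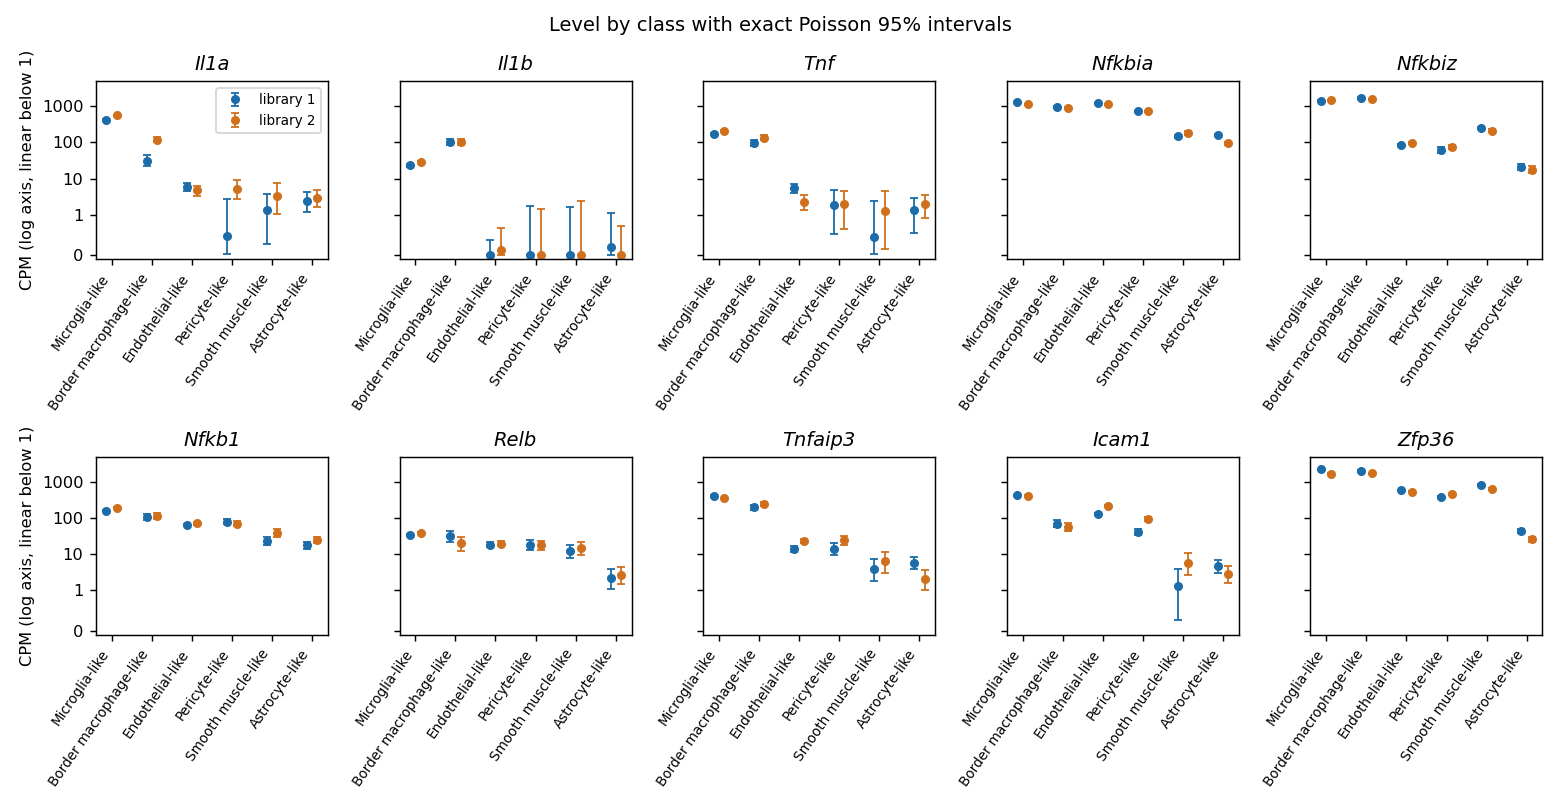
Level of each gene (CPM, log axis) in 6 classes, with 1 point per library and exact Poisson 95% intervals that cover counting error alone. Nfkbia lies at the same height in microglia and endothelial cells, whereas Il1a falls from 428 and 567 CPM in microglia to 5.93 and 4.70 CPM in endothelial cells.

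In the neural classes the levels of the genes were set beside that of microglial marker RNA in the same class. For each of 9 neural classes and 2 libraries, a reference level was taken as the microglial CPM times the share of microglial marker RNA found in the class, as if all of that RNA were carried over from microglia. The part of carried-over RNA in these values was not tested. Of these 18 values, 13 were at or under it for Il1a, 14 for Il1b and 15 for Tnf. Il1b amounted to 9 UMIs over all neural cells and Tnf to 80. Tnfaip3 was at or under it in 12 of 18, Nfkbiz in 9, Icam1 in 7, Zfp36 in 3, Relb in 2, and Nfkbia and Nfkb1 in 0. In astrocytes, whose cells were shallower than microglia, a UMI of Tnf was found in 0.761% and 0.865% of cells, of Icam1 in 1.30% and 1.41%, of Tnfaip3 in 2.17% and 0.973% and of Zfp36 in 12.2% and 9.30%. After thinning these shares were 0% and 0.108%, 0.217% and 0.649%, 0.326% and 0%, and 3.48% and 1.73%. Nfkbia ranged from 19.9 to 162 CPM, Nfkb1 from 10.5 to 28.6 CPM and Zfp36 from 8.92 to 114 CPM across these 18 values. The highest values of Il1a (13.9 CPM), Relb (16.5 CPM), Tnfaip3 (10.1 CPM), Icam1 (25.4 CPM) and Zfp36 were all in the COP of library 1, 71 cells with microglial marker RNA at 4.67% of the level in microglia, the highest percentage of the neural classes.

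Free RNA, read from barcodes with fewer than 100 UMIs, held all 10 genes, for example Il1a at 117 and 120 CPM and Zfp36 at 722 and 579 CPM. Its share of a class's UMIs was taken as the lowest ratio of class level to free-RNA level over marker sets of other classes. It was between 0.297% and 3.91%, and by this choice other marker sets gave the same or higher values. The lowest share, in border macrophages of library 1, rested on 7 marker UMIs.

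The cells had been dissociated with enzymes, and 20 early-response genes, such as Fos, Jun and Egr1, were high in the same classes. Their summed level was 43207 and 35146 CPM in microglia, 26293 and 25389 CPM in border macrophages, 19936 and 16251 CPM in endothelial cells, 3519 and 4119 CPM in RGL and 1113 and 907 CPM in astrocytes. The part of these genes' response in the levels of the 10 members was not tested, and levels before dissociation cannot be told apart from a response to it.

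Microglia were not uniform in these genes. They fell into 4 clusters, formed without the 10 members: cluster 10 with 525 and 509 cells, cluster 15 with 1537 and 945, cluster 11 with 825 and 971, and cluster 16 with 29 and 41. Cluster 10 was led by P2ry12 and Tmem119, genes of resting microglia. Cluster 15 was led by Crybb1 and Tmem119, cluster 11 by Ccl4, Ccl3 and Cd83, and cluster 16 by the interferon-response genes Cxcl10 and Ifit3. Tnf and Il1a themselves were among the 10 leading genes of cluster 11, and the following levels are a description without a test.

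Cluster 10 was lowest for all 10 genes in both libraries, and Nfkb1 differed least between the clusters. Il1a stood at 119 and 101 CPM in cluster 10, 394 and 481 CPM in cluster 15, 601 and 779 CPM in cluster 11 and 486 and 662 CPM in cluster 16. Tnf stood at 30.9 and 33.0 CPM in cluster 10, 128 and 156 CPM in cluster 15, 299 and 303 CPM in cluster 11 and 464 and 328 CPM in cluster 16. Il1b was concentrated in cluster 11, at 58.7 and 53.5 CPM, compared with 1.29 and 3.10 CPM in cluster 10 and 7.59 and 9.13 CPM in cluster 15.

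Nfkbia, Nfkbiz and Tnfaip3 followed with smaller steps between clusters 15 and 11. Nfkbia was at 346 and 267 CPM in cluster 10, 1255 and 1028 CPM in cluster 15 and 1792 and 1486 CPM in cluster 11, and Nfkbiz at 260 and 225, 1458 and 1448, and 1833 and 1967 CPM. Tnfaip3 was at 97.9 and 65.9 CPM, 449 and 372 CPM, and 482 and 442 CPM in the same clusters. Icam1 was at 198 and 164 CPM in cluster 10 and at 458 and 421 CPM in cluster 15. The ratio of the highest to the lowest cluster was 45.6 and 17.2 for Il1b, 15.0 and 9.94 for Tnf, 5.06 and 7.70 for Il1a, 2.51 and 2.29 for Zfp36, and 1.16 and 1.68 for Nfkb1. The lowest Il1b values rested on 4 and 8 UMIs. With all variable genes in the clustering, which gave 5 microglial clusters, the ratio was 62.7 and 41.1 for Il1b and 25.3 and 18.8 for Tnf. In that clustering 1 microglial cluster, with 233 and 209 cells, held Il1b at 124 and 124 CPM. Border macrophages held 103 and 105 CPM there.

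Depth and the early-response genes also differed between these clusters. Median UMIs per cell were 5678 and 4886 in cluster 10, 8014 and 7074 in cluster 15, 8710 and 7664 in cluster 11 and 8795 and 7850 in cluster 16. The early-response sum was 21074 and 15810 CPM in cluster 10 and 47861 and 39628 CPM in cluster 15. It was 43866 and 37406 CPM in cluster 11 and 46149 and 31966 CPM in cluster 16. Their part in the differences was not tested.

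**Figure D3:**
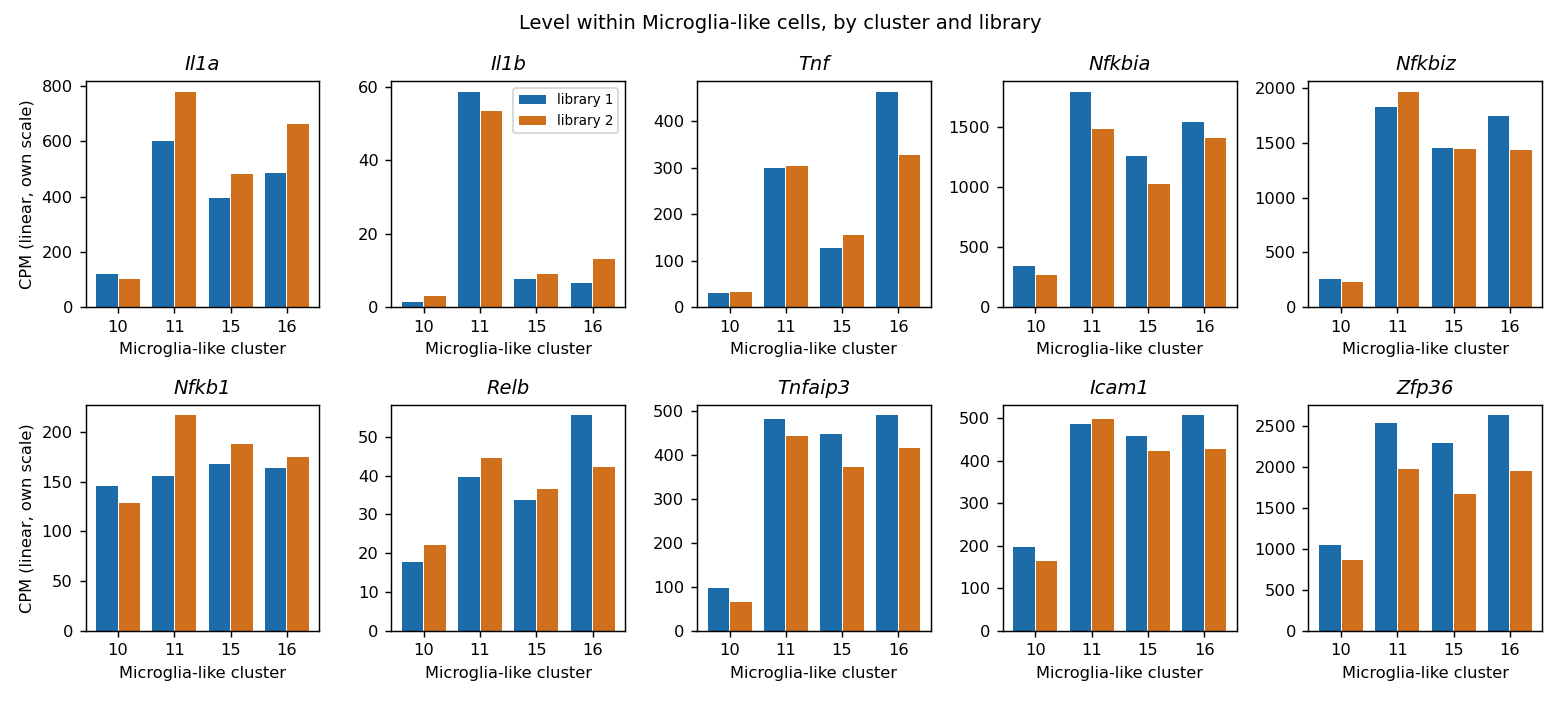
Level of each gene (CPM, bars from 0) in the 4 microglial clusters, with 1 bar per library. Cluster 10 is the lowest in each panel, the bars of Nfkb1 differ least, and Il1b stands out in cluster 11 at 58.7 and 53.5 CPM.

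Single microglia held several of the genes at once. A microglial cell held UMIs of a median of 7 of the 10 genes in both libraries, and of 3 after thinning to 1000 UMIs. Border macrophages held a median of 4, or 2 after thinning, and endothelial cells 3, or 1 after thinning. At least 5 of the 10 genes were found in 18.7% and 20.3% of thinned microglia, 5.23% and 4.70% of border macrophages and 0.358% and 0.362% of endothelial cells. Of the 45 pairs of genes, 36 in library 1 and 42 in library 2 were found together in more thinned microglia than the product of their single shares, and 9 and 3 in fewer. In border macrophages 34 and 37 pairs were above the product and 11 and 8 below. In endothelial cells 21 and 21 were above and 15 and 24 below, and the pairs with Il1b in library 1 had 0 on both sides. For scarce genes 1 cell can decide the side. In endothelial cells of library 2, for example, the product for Il1a and Tnf was 0.0013% of cells. These counts therefore depend on how often each gene was found and do not compare the classes. For the 9 microglial pairs with Nfkb1 the libraries differed, with 1 and 8 pairs above the product. Across thinned cells, the strongest rank correlations between members in microglia were between Nfkbia and Zfp36 (Spearman 0.28 and 0.27) and between Nfkbia and Nfkbiz (0.25 and 0.29), whereas Il1a and Tnf had 0.07 and 0.12. With the early-response sum the correlations were higher than between members for Zfp36 (0.48 and 0.48), Nfkbia (0.31 and 0.34) and Nfkbiz (0.29 and 0.36), so that the most strongly correlated members also followed that sum. Tnfaip3 had 0.21 and 0.24 with it, Icam1 0.12 and 0.10, and Nfkb1 0.01 and 0.03. Border macrophages had similar patterns, and in endothelial cells these correlations were lower. In border macrophages Nfkbia had 0.28 and 0.30 with Zfp36 and 0.39 and 0.37 with Nfkbiz, and Il1a and Tnf had -0.05 and 0.12. With the early-response sum, border macrophages had 0.63 and 0.69 for Zfp36, 0.36 and 0.36 for Nfkbia and 0.61 and 0.44 for Nfkbiz. In endothelial cells Nfkbia had 0.04 and 0.16 with Zfp36 and -0.01 and 0.02 with Nfkbiz. Endothelial values with the early-response sum were 0.37 and 0.31 for Zfp36, 0.06 and 0.21 for Nfkbia and 0.13 and 0.13 for Nfkbiz. The part of the early-response genes in the correlations between members was not tested. The microglial values are over 2916 and 2466 cells, those of border macrophages over 153 and 149 and those of endothelial cells over 837 and 828. The cells share a library and a fixed depth, and none of these values is a test.

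Other genes with the most similar pattern were sought over 32 sums of class and library, as the Pearson correlation of log2(CPM + 10) among 15442 genes. The closest were Csf3r for Il1a (0.97), Tlr5 for Il1b (0.98), Il21r for Tnf (0.99), Lgals9 for Nfkbia (0.96), Atf3 for Nfkbiz (0.96), Cmtm6 for Nfkb1 (0.97), Irf1 for Relb (0.93), Irf5 for Tnfaip3 (0.98), Hhex for Icam1 (0.96) and Tgfb1 for Zfp36 (0.98). Zfp36 was the second closest to Nfkbiz (0.96). All of these sums share 2 libraries.

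Differences between classes were then tested on UMI sums per library and class with edgeR's quasi-likelihood test, 2-sided, with library as a block and Benjamini-Hochberg adjustment over 16222 genes. Fold changes are on the log2 scale with their standard errors (SE), and a gene passed at an adjusted p under 0.05. The p-values rest on how far 2 libraries varied and not on mice. As the 2 libraries are of different genotypes, this spread may also hold differences between genotypes. Microglia enter 2 of the 5 contrasts, endothelial cells 3 and astrocytes 2, so the contrasts are not independent. The list is described by its count and its median beside those of all genes tested. It was chosen with earlier results of these data known, so these counts and medians are no independent test of it.

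Microglia and border macrophages, the 2 resident myeloid classes, both held all of the cytokine genes but differed in their levels in the main fit. Il1a, Icam1, Tnf, Tnfaip3 and Nfkb1 were higher in microglia, and Il1b was higher in border macrophages. Of the 10 genes, 5 were called higher and 1 lower in microglia, where 12.5% and 11.2% of all genes were called. The median difference of the 10 genes was 0.51 and that of all genes 0.14.

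Il1a was 2.71 ± 0.27 higher in microglia (SE; adjusted p = 1.09e-09), but the difference was 3.71 in library 1 and 2.19 in library 2, since border macrophages of library 1 had 36 UMIs and those of library 2 had 121. Icam1 was 2.67 ± 0.27 higher (adjusted p = 2.41e-09), with 2.57 and 2.79 in the libraries. Il1b had a difference of -2.02 ± 0.29 (adjusted p = 5.43e-06). With DESeq2, which used its own size factors and estimates of spread, the folds were similar and the SEs larger. Il1b had -2.08 ± 2.37 (adjusted p = 0.627), Tnf 0.60 ± 0.53 (adjusted p = 0.493) and Tnfaip3 0.62 ± 0.60 (adjusted p = 0.543). Over all alternatives the adjusted p ranged from 6.09e-46 to 0.627 for Il1b, and 7 of 8 alternatives called Tnf and 7 called Tnfaip3.

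Smaller differences were seen for Tnfaip3 (0.76 ± 0.20, adjusted p = 0.00491), Tnf (0.70 ± 0.19, adjusted p = 0.00572) and Nfkb1 (0.60 ± 0.14, adjusted p = 0.00101). Nfkbia, Relb, Nfkbiz and Zfp36 did not pass, with differences of 0.38, 0.42, -0.18 and 0.00. Border macrophages had 38.1% and 34.7% of the microglial marker sum, in which 2 of the 9 markers, Csf1r and C1qa, also mark border macrophages.

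Among 54 of 60 other pathway genes that could be tested, 14 were higher in microglia and 10 lower, with a median of 0.20. Of the 6 chemokine targets, 2 were higher in microglia and 3 lower. Cxcl2, a neutrophil attractant, was at 30.0 and 10.3 CPM in microglia and 2466 and 2336 CPM in border macrophages (-7.10 ± 0.33), and Ccl2, a monocyte attractant, was lower by the same test (-4.82 ± 0.20). The 2 higher ones, named after their values were seen, were Ccl4 at 2139 and 1957 CPM against 444 and 678 CPM (1.79 ± 0.41) and Cxcl10 (2.28 ± 0.59). Of the adhesion targets, Vcam1 was at 6.39 and 6.96 CPM against 728 and 589 CPM (-6.69 ± 0.30). Of the receptors, the lipopolysaccharide co-receptor Cd14 was lower in microglia (-1.23 ± 0.19). Cd40, a receptor of the tumour necrosis factor family, had 2 UMIs in microglia and was 211-fold higher in border macrophages (95% counting interval 51.6 to 1858).

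Other Rel genes were slightly higher in microglia, Rel by 0.69 ± 0.16 and Nfkb2 by 0.66 ± 0.20. The growth factor gene Csf1 was higher by 4.53 ± 0.43, at 101 and 99.8 CPM against 2.62 and 5.96 CPM. The anti-inflammatory cytokine Il10 had 0 UMIs in microglia and 64 in border macrophages, at least 429-fold higher there if 3 UMIs are taken as the floor over the class. The adaptor genes Traf3 (1.93 ± 0.45) and Myd88 (0.68 ± 0.17) and the RNase gene Zc3h12a (0.77 ± 0.17) were higher in microglia, and Irak3, a brake on receptor signalling, was lower (-2.20 ± 0.54). Of the 20 early-response genes, 2 were higher and 2 lower.

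Against endothelial cells, microglia had more of each gene except Nfkbia. Of the 10 genes, 9 were called higher and 0 lower, where 31.6% and 29.3% of all genes were called, and the median was 3.08 beside 0.03 for all genes. The cytokine genes differed most. Il1a was 6.70 ± 0.28 higher and Tnf 5.77 ± 0.22 higher, and for Il1b the single endothelial UMI gave a ratio of 462 (95% counting interval 82.7 to 18260; adjusted p = 2.76e-12 in edgeR).

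Tnfaip3 (4.58 ± 0.22) and Nfkbiz (4.20 ± 0.33) came next, then Zfp36 (1.96 ± 0.37, adjusted p = 2.76e-05), Nfkb1 (1.56 ± 0.11), Icam1 (1.51 ± 0.19, adjusted p = 3.30e-08) and Relb (1.12 ± 0.22, adjusted p = 4.10e-05). Nfkbia differed by 0.23 ± 0.30 (adjusted p = 0.543), so no difference was detected in the inhibitor gene. By library, Icam1 was higher in microglia by 1.86 and 1.15, Tnfaip3 by 5.02 and 4.16, Il1a by 6.29 and 7.13 and Tnf by 5.13 and 6.72. These 4 are the genes with more than 1 endothelial UMI whose fold differed by over 1.5 times between libraries.

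Of the other pathway genes, 38 of 54 were higher in microglia and 7 lower, with a median of 1.37. The receptors Cd14 (6.19 ± 0.26) and Tlr2 (5.64 ± 0.18), the signalling genes Myd88 (2.64 ± 0.13) and Map3k14 (4.18 ± 0.30) and all 3 other Rel genes were higher, among them Rel at 445 and 563 CPM against 16.5 and 22.8 CPM (4.88 ± 0.18) and Nfkb2 (2.23 ± 0.14). So were the inflammasome sensor Nlrp3 (6.58 ± 0.22), the cytokine Il18 (3.30 ± 0.17), the chemokines Ccl4 (7.95 ± 0.54) and Ccl2 (5.86 ± 0.37), the nuclear inhibitor Nfkbid (5.16 ± 0.24) and Zc3h12a (3.55 ± 0.14). Both tested adhesion targets other than Icam1 were lower in microglia: Icam2 was at 2.01 and 2.07 CPM against 219 and 173 CPM (-6.39 ± 0.21), and Vcam1 had -3.35 ± 0.29. Icam1 thus differed in the other direction from Icam2 and Vcam1. Of the early-response genes, 13 of 20 were higher in microglia and 4 lower.

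Within the vessel, endothelial cells had more Icam1 and Nfkbia than the mural cells around them, here pericytes and smooth muscle cells summed. Of the 10 genes, 4 were called higher and 0 lower, where 19.0% and 16.6% of all genes were called. The median was 0.84 beside 0.06 for all genes. Icam1 was at 130 and 222 CPM in endothelial cells and 20.5 and 60.0 CPM in mural cells (2.20 ± 0.24, adjusted p = 4.04e-09; 2.77 and 1.94 by library). Nfkbia was at 1250 and 1142 CPM against 421 and 519 CPM (1.40 ± 0.31, adjusted p = 0.000448). Nfkb1 differed by 0.39 ± 0.13 (adjusted p = 0.0143). Tnf passed at 1.53 ± 0.60 (adjusted p = 0.0440) on 53 and 19 endothelial UMIs, 37 and 8 of them from 1 cell each, against 5 and 7, with 2.32 and 0.46 by library, and 6 of 9 alternatives called it (adjusted p 0.00521 to 0.106).

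The mural values depended on 1 cluster of pericytes. Cluster 26, with 68 and 91 cells, had medians of 19623.5 and 20686 UMIs per cell, and all 8 endothelial markers were found in at least 25% of its cells, while the other pericyte cluster, 24, had 116 and 102 cells. Nfkbia was at 941 and 856 CPM in cluster 26 and 186 and 211 CPM in cluster 24, and Icam1 at 56.1 and 114 CPM and 6.51 and 11.8 CPM. Without cluster 26, an alternative chosen after seeing the data, Icam1 was 5.24 ± 0.33 higher in endothelial cells and Nfkbia 2.74 ± 0.32 higher. Tnfaip3 then also passed (1.40 ± 0.42, adjusted p = 0.00686), as did Nfkbiz in the other direction (-1.12 ± 0.30, adjusted p = 0.00276), which had -0.59 ± 0.30 with the cluster (adjusted p = 0.141). Relb, Zfp36, Il1a and Il1b did not pass with it, and Zfp36 differed by 0.05.

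Endothelial cells themselves formed 2 clusters. Cluster 18, with 552 and 559 cells and led by Ctla2a, Car4 and Vwf, held Icam1 at 175 and 289 CPM, and cluster 20, with 285 and 269 cells and led by Igfbp3, Sema3g and Gkn3, genes known from arteries, held 30.8 and 54.2 CPM. Nfkbia was at 1258 and 1210 CPM in the first and 1231 and 972 CPM in the second. With all variable genes in the clustering this split was not found, and 99.6% and 98.6% of endothelial cells lay in 1 cluster.

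Of the other pathway genes, 18 of 54 were higher in endothelial than in mural cells and 3 lower, with a median of 0.36. Both other adhesion targets tested were higher, Vcam1 (2.47 ± 0.34) and Icam2 (1.89 ± 0.16). So were the receptors Cd40 (1.58 ± 0.27) and Il1r1 (0.81 ± 0.16), the interleukin 1 receptor, the kinase gene Irak1 (0.79 ± 0.13), Rela (0.32 ± 0.13), Tgfb1 (0.75 ± 0.16), the nuclear IkB gene Bcl3 (1.79 ± 0.37) and Tnip1 (0.72 ± 0.24), a partner of A20. Myd88 was lower (-1.26 ± 0.16). Il6 had 0 UMIs in endothelial cells and 14 in mural cells, at least 9.99-fold higher there by the floor of 3 UMIs. None of the 6 chemokine targets passed. Of the early-response genes, 9 of 20 were higher and 3 lower.

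Endothelial cells exceeded astrocytes in most of the group. Of the 10 genes, 8 were called higher and 0 lower, where 33.9% and 30.8% of all genes were called, with a median of 2.18 beside 0.01. Icam1 differed most (5.45 ± 0.34, adjusted p = 3.39e-15; 4.81 and 6.14 by library), followed by Zfp36 (4.03 ± 0.42), Nfkbia (3.20 ± 0.33, adjusted p = 4.71e-10), Relb (2.91 ± 0.33), Nfkbiz (2.20 ± 0.34), Tnfaip3 (2.16 ± 0.40; 1.27 and 3.35 by library) and Nfkb1 (1.63 ± 0.14). Tnf passed narrowly (1.21 ± 0.54, adjusted p = 0.0497; 1.99 and 0.14 by library), in 4 of 9 alternatives (adjusted p 0.0331 to 0.277), and Il1a and Il1b did not pass. The same 2 cells held 37 and 8 of the endothelial Tnf UMIs in this contrast.

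All 20 early-response genes were higher in endothelial cells than in astrocytes, with a median of 4.56. Of the other pathway genes, 30 of 54 were higher and 7 lower, with a median of 0.99. Icam2 (8.84 ± 0.35), Il1r1 (4.01 ± 0.23), Tgfb1 (4.75 ± 0.25), Bcl3 (4.94 ± 0.55), Rela (2.06 ± 0.15), Nfkb2 (1.84 ± 0.25), Cxcl2 (3.16 ± 0.82) and the kinase-complex genes Ripk1 (1.68 ± 0.15) and Tab2 (1.31 ± 0.14) were higher. Cd40 had 0 UMIs in astrocytes and was at least 116-fold higher in endothelial cells by the floor of 3 UMIs. Cxcl1 and Irak3 each had 1 UMI in astrocytes and were 242-fold (95% counting interval 43.2 to 9592) and 132-fold higher (23.4 to 5234). Il18 was the reverse, at 5.11 and 4.58 CPM in endothelial cells and 219 and 167 CPM in astrocytes (-5.35 ± 0.16), as was Vcam1 (-1.79 ± 0.24).

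**Figure D4:**
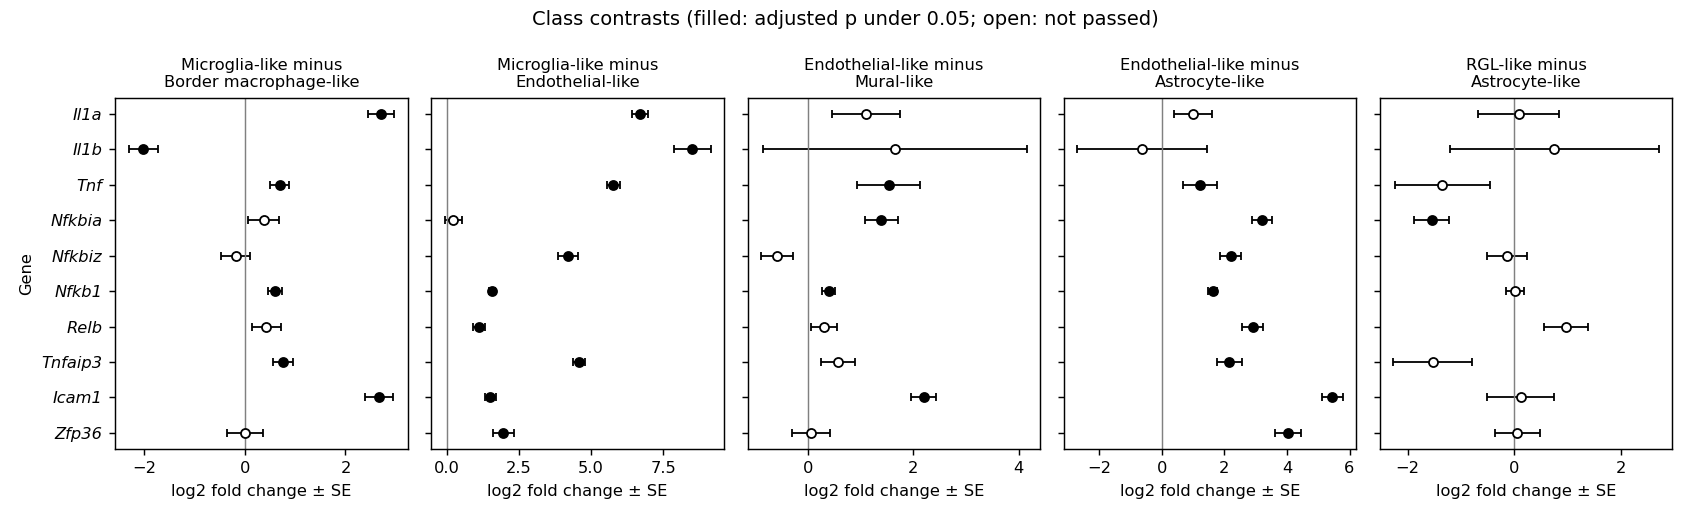
Log2 difference of each gene with its standard error in the 5 contrasts between classes, with filled points for adjusted p under 0.05. The cytokine genes lie far to the microglial side against endothelial cells, Il1b lies to the border macrophage side, and in the contrast of RGL with astrocytes Nfkbia at -1.55 is the filled point.

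Among neural cells, RGL, the stem cells the series is about, had less Nfkbia than astrocytes. Nfkbia was at 69.5 and 42.1 CPM in RGL and 162 and 94.4 CPM in astrocytes (-1.55 ± 0.33, adjusted p = 0.000393), and the difference was -1.58 and -1.52 by library. A UMI was found in 31.7% and 20.6% of RGL and 48.2% and 35.6% of astrocytes, and in 9.48% and 3.92% against 15.0% and 8.76% after thinning. The 2 classes' ranges did not overlap. Of the 10 genes, 0 were called higher and 1 lower, where 14.0% and 16.7% of all genes were called, and the median was 0.04 beside -0.01.

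The other 9 genes did not pass between these classes. Relb was at 5.61 and 6.45 CPM in RGL and 2.17 and 2.69 CPM in astrocytes (0.97 ± 0.42, adjusted p = 0.0793), on 21 and 32 UMIs against 11 and 14. Tnfaip3 had -1.53 ± 0.74 (adjusted p = 0.121) on 5 and 10 UMIs against 30 and 11. With total-count scaling, which moved the median of all genes to 0.29, Relb passed (adjusted p = 0.0103; 0.0103 to 0.133 over its alternatives), and without the filter on low counts Tnfaip3 passed (adjusted p = 0.00775; 0.00775 to 0.470).

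Of the wider pathway, 2 of 54 genes were higher in RGL, 14 were lower and 38 did not pass, beside 14.0% and 16.7% of all genes called higher and lower, and the median was -0.37. Il1r1 (-3.33 ± 0.65) and the tumour necrosis factor receptor gene Tnfrsf1a (-1.23 ± 0.18) were lower, as were the kinase genes Irak2 (7.75 and 8.87 CPM against 72.1 and 53.4 CPM; -3.22 ± 0.28) and Chuk (-0.56 ± 0.16), Rel (-1.27 ± 0.42), Csf1 (-1.12 ± 0.22), Il18 (-1.02 ± 0.12), Vcam1 (-1.47 ± 0.24) and the chemokine Ccl4 (-1.63 ± 0.53). The inhibitor gene Nfkbie had 3 UMIs in RGL and 21 in astrocytes, where it was 5.92-fold higher (95% counting interval 1.77 to 31). The 2 higher genes were Rela (0.57 ± 0.18) and Zfp36l1 (1.49 ± 0.34), a relative of Zfp36, at 486 and 584 CPM against 145 and 155 CPM. The early-response genes had the other direction, with 15 of 20 higher in RGL, 0 lower and a median of 1.28.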

How the data were processed

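The authors deposited 1 matrix of whole UMI counts with no scaling or filter on barcodes, per the file headers, covering 32285 genes. It was made with Cell Ranger 4.0.0 against mm10 (Scanpy 1.7.0 is also named), per the submitters' processing notes. Barcodes with at least 1000 UMIs, 500 genes and at most 20% mitochondrial UMIs were kept, and Scrublet doublets were removed (226 and 252 cells, 2.74% and 3.01%). Cells of both libraries were clustered together in scanpy 1.11.5 (2961 variable genes, 40 components, 15 neighbours, Leiden resolution 1) and named from markers. The members and the pathway, early-response, sex-linked and mitochondrial genes were left out of the clustering. From the deposited counts, CPM per class, shares of positive cells before and after thinning to 1000 UMIs, and exact 95% intervals were computed. UMI sums of 16 classes in 2 libraries were tested in 1 fit with edgeR 4.0.16 (filterByExpr, TMM, quasi-likelihood, library block, 15 residual degrees of freedom, biological coefficient of variation 0.122) in R 4.3.3, after a check on simulated data. DESeq2 1.42.0 was an alternative.

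The members and gene lists were chosen with earlier results of these data known. All 10 members are named, and of 7 roles of other pathway genes up to 2 per contrast with the smallest adjusted p, then the largest fold. Scoring details of class names were set after seeing the data. Genotypes were not compared, because no source maps the barcode suffixes to genotypes. UMI totals per class and library ranged from 265458 to 24896987, and each sum's counting error is in its interval. The 3' end sequence of 1 member is not reported here.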

Additional observations from a re-analysis of the deposited data

Results flagged for a closer look

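Il1b was found outside the classes compared above. A small cluster of 33 cells in library 1 and 34 in library 2, led by H2-Eb1, H2-Aa, Ccl5, S100a9 and Igkc, which are genes of several kinds of leukocytes, could not be given 1 name and entered no comparison. Its Il1b level was 462 CPM in library 1 (121 UMIs, 12 of 33 cells positive) and 594 CPM in library 2 (152 UMIs, 16 of 34 cells positive), above every class reported, of which border macrophages at 100 and 102 CPM were the highest. The largest number of UMIs in 1 cell was 23 and 25. The values stood out because they lie in cells that the comparisons do not use. No cause was tested.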

How the results depend on the processing

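Of the 10 genes, the number called between microglia and border macrophages was 3 higher and 0 lower with DESeq2, and 6 higher and 2 lower when the fit held the contrasted classes alone. Of all genes, 1574 were called higher and 2192 lower with DESeq2, and 2303 and 2418 with the contrasted classes alone. The main fit called 2026 and 1812. Between endothelial and mural cells, 6 were higher and 1 lower without the filter on low counts, 2 higher and 1 lower with the contrasted classes alone, and 5 higher and 1 lower without the deep pericyte cluster. Of all genes, 3108 were higher and 2697 lower without the filter, and 2387 and 2805 with the contrasted classes alone. Without the deep pericyte cluster the counts were 3563 and 3355, and in the main fit 3088 and 2687. Between RGL and astrocytes, 1 was higher and 1 lower with total-count scaling and with DESeq2, 0 higher and 2 lower without the filter and with a mitochondrial limit of 10%, and 1 higher and 2 lower with the contrasted classes alone. Of all genes, 4898 were higher and 1647 lower with total-count scaling, and 2182 and 2558 with DESeq2. The counts were 2180 and 2848 without the filter and 1825 and 2424 with the mitochondrial limit. With the contrasted classes alone they were 2884 and 3223, and in the main fit 2275 and 2717. The number of genes tested also differed between settings. The cause was not tested. No called difference changed sign, and leaving out the library block changed none of the 50 calls. With doublets kept, 34 of 120 levels moved by more than their counting interval, and with free RNA subtracted 24 did. No paired analysis was possible between genotypes because each gave 1 library, whereas the contrasts between classes lie within libraries and had the library as a block. Leaving out a library leaves no residual spread, so it gave folds without a test. With all variable genes in the clustering, 6 of 20 ratios between microglial clusters moved. Depth limits Il1b and Tnf most, with 9 and 80 UMIs over all neural cells.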
